A study of Mus musculus with 14 samples.

Results

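The 8 genes described here, *Hmgcs1*, *Mvd*, *Idi1*, *Fdft1*, *Sqle*, *Lss*, *Cyp51* and *Dhcr7*, encode enzymes of cholesterol synthesis. They were found by symbol among the 19215 genes of the RNA-seq tables, and 11 of the 13189 cassette exons belong to them by gene number. The RNA came from whole spinal cord (WSC) of 12-week-old mice carrying a wild-type human SOD1 transgene (SOD1 WT, B6/SJL background), with 1 poly(A) library per sex. No other RNA-seq group was analysed here, so that sex, animal and library cannot be told apart. NOVA HITS-CLIP, which sequences RNA fragments crosslinked to the neuronal splicing regulator NOVA, was read in 12 further libraries from 3-month-old C57BL/6 mice. Motoneuron (MN) CLIP pulled down AcGFP-tagged NOVA2 with GFP antibodies from mice hemizygous for a Chat:GFP-Nova BAC, which the *Chat* promoter drives in cholinergic neurons, with 4 libraries of line 6 and 4 of line 17, each from pooled spinal cords. WSC CLIP pulled down endogenous NOVA with an anti-NOVA serum from 4 single wild-type spinal cords. Both used spinal cord tissue. The cells that carry the targeted NOVA, its form (tagged NOVA2 or endogenous NOVA), antibody, transgene and pooling therefore differ together between MN and WSC. None of them can be told apart from the others.

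Cholesterol is built from acetyl-CoA in the endoplasmic reticulum and cytosol, and the brain and spinal cord make nearly all of their own, because lipoproteins do not cross the blood-brain barrier. Oligodendrocytes need large amounts of it for myelin. The pathway is switched on as a unit by SREBP2, a membrane-bound transcription factor released when sterols are low, whereas the related SREBP1 favours fatty acid genes. HMGCS1 makes HMG-CoA, an early intermediate. MVD and IDI1 make the isoprenoid units, FDFT1 joins farnesyl units into squalene, SQLE oxidises squalene, LSS closes it into lanosterol, CYP51 removes a methyl group from lanosterol, and DHCR7 makes cholesterol from 7-dehydrocholesterol.

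The fullest NOVA CLIP sites of the genes are shown first, since they carry the binding data below. Each line is the 30-base stretch of highest coverage within the 100-base bin with most reads, read from the mm9 reference (NCBIM37) on the strand of the gene, with the NOVA core motif YCAY (Y stands for C or T) in capitals. *Mvd* is left out, because its fullest bin held 7 reads. Reads of MN and WSC were pooled for these bins, and WSC gave most of them. The *Idi1* bin held 0 MN and 23 WSC reads, and the *Dhcr7* bin 3 and 78.
Idi1, 3′ UTR, chr13:8890156-8890185, plus strand: actagaacTCATattttacatttgatagac
Fdft1, coding exon, chr14:63765711-63765740, minus strand: caggacacagaaccttcccaactgccagct
Sqle, coding exon, chr15:59162455-59162484, plus strand: aagtatctggtTCATtgaaagggagtCCAC
Lss, 3′ UTR, chr10:76016626-76016655, plus strand: cTCATaacatctatacacataaaataaatc
Cyp51, intron, chr5:4085218-4085247, minus strand: cctatcCCATcctCCATcccgctccTCACt
Dhcr7, coding exon, chr7:151023731-151023760, plus strand: tactactTCATCATggcatgtgaccagtac
The *Cyp51* stretch held 3 YCAY, those of *Sqle* and *Dhcr7* 2 each, those of *Idi1* and *Lss* 1 each and that of *Fdft1* 0.

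Reads on genes numbered 72006019 (male) and 65625173 (female). Markers of glia, neurons and motoneurons were present in both libraries. Summed over 7 oligodendrocyte markers, the level was 8130 RPKM (reads per kilobase of exon and 1000000 reads on genes) for the male and 8777 RPKM for the female. The 3 blood markers summed to 96.5 and 39.3 RPKM, the 3 endothelial markers to 15.5 and 11.1 RPKM, and the 5 motoneuron markers to 62.7 and 88.0 RPKM. In bulk tissue, a change in the number of cells of a type cannot be told apart from a change in RNA per cell, and the part of cell composition in the values below was not tested.

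Among the 8 genes, 7 had a mean of at least 1 RPKM in the spinal cord and 1, *Hmgcs1*, was listed near 0. *Sqle* had 61.4 RPKM in the male and 72.6 in the female, and *Cyp51* 59.6 and 71.3. These are the highest levels of the group, at the 95.1 and 94.9 percentiles of all genes, with means of 66.98 ± 7.90 and 65.4 ± 8.33 RPKM (SD, n = 2). The SDs hold the shift between the libraries, which both genes share, and do not measure the difference between the genes. *Sqle* was slightly higher than *Cyp51* in each library, which was not tested. *Fdft1* followed with 41.3 and 40.8 RPKM, then *Dhcr7* with 26.3 and 29.1, *Mvd* with 18.6 and 21.3, and *Lss* with 12.2 and 11.5. *Idi1* was far lower, with 2.99 and 3.49 RPKM, at the 49.1 percentile of all genes and the 18.0 percentile of genes with a mean of at least 1 RPKM. From *Fdft1* down to *Idi1*, the male and female values of neighbouring genes did not overlap. *Lss*, the enzyme between *Sqle* and *Cyp51* in the pathway, was well below both. *Sqle* stood 5.03-fold (male) and 6.31-fold (female) over it, and *Cyp51* 4.88-fold and 6.20-fold.

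**Figure D1:**
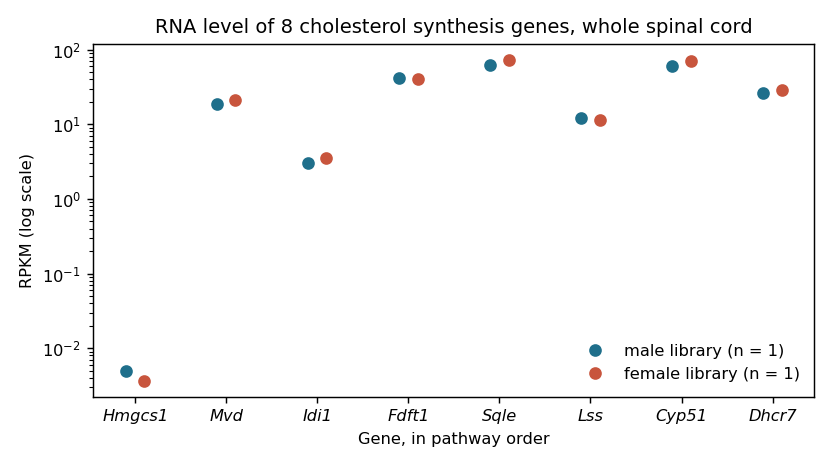
RPKM of each gene in the male and the female whole spinal cord library, on a log axis, 1 point per library and genes in pathway order. *Sqle* and *Cyp51* lie between 59.6 and 72.6 RPKM in both libraries, *Idi1* near 3 RPKM, and *Hmgcs1* far under 0.1 RPKM.

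*Hmgcs1* had 3 male and 2 female reads over 8340 nt of exon, or 0.0050 and 0.0037 RPKM, so no fold was computed. The files place its 4 cassette exon entries on chr13_random, an unplaced part of the assembly, as 2 copies of 2 exons on the minus strand, and all 4 had 0 junction reads in both libraries. The mm9 annotation used for the CLIP reads (GENCODE vM1) has no gene of this symbol, so *Hmgcs1* has no CLIP value. The deposited counts hold only reads that map to 1 place. In the 300-base *Hmgcs1* promoter (RefSeq, GRCm38.p6), all 227 windows of 74 nt, the length of the trimmed reads, matched NCBIM37 at 2 places, against 0% of the windows in the promoters of *Cyp51*, *Dhcr7*, *Idi1*, *Lss* and *Mvd*. The transcript of *Hmgcs1* was not scanned, as it is not in the annotation. Among the transcripts scanned, that of *Idi1* was the most repeated. Of its 74-nt windows, 75.7% were found at 2 or more places, followed by *Fdft1* with 10.1%. The transcripts of *Mvd*, *Sqle*, *Lss*, *Cyp51* and *Dhcr7* had 0%. Among 22503 genes, 5.60% had over 50 percent of their windows repeated. Reads from repeated windows were not counted, and whether or how far this lowered the RPKM of *Hmgcs1* and *Idi1* was not tested.

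Among the 6 genes with a promoter entry, that of *Hmgcs1* held the only match to the sterol response motif TCACNCCAC. *Fdft1* and *Sqle* had no promoter entry and were not searched. The match, in capitals, lies 137 bases before the gene start on chr13 (GRCm38.p6, plus strand).
Hmgcs1 promoter: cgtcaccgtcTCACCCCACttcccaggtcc
The motif was searched on both strands of the RefSeq promoters, which run from 250 bases before to 50 bases after each start, and 1.24% of all 32851 promoters held it. The 6 genes with a promoter entry had 8 promoters, of which 1 held TCACNCCAC and 6 held CCAAT, the binding motif of NF-Y, which 37.4% of all promoters held. A match is no evidence of binding, and other forms of the sterol motif were not searched.

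Between the 2 RNA libraries, no gene of the group passed a 1.5-fold difference, and the direction leaned to the female library. Of the 7 genes over 3 reads, *Cyp51*, *Sqle*, *Idi1*, *Mvd* and *Dhcr7* were higher in the female library and *Fdft1* and *Lss* were not. On the log2 scale of RPKM + 0.1, the female to male difference was 0.26 for *Cyp51* (95% counting interval 0.23 to 0.29) and 0.24 for *Sqle* (0.21 to 0.28). It was 0.22 for *Idi1*, 0.20 for *Mvd* and 0.15 for *Dhcr7*, all with counting intervals above 0. *Fdft1*, at -0.02 (-0.06 to 0.02), and *Lss*, at -0.08 (-0.17 to 0.0002), had intervals that reached 0. The median of the 7 genes was 0.20, beside -0.01 over the 11940 genes with a mean of at least 1 RPKM. Of those, 48.7% were higher in the female library and 3.49% passed 1.5-fold in either direction. The *Cyp51* difference exceeded that of 90.7% and the *Sqle* difference that of 89.1% of these genes, so both lie within the central 95% of them (-0.55 to 0.48). These intervals cover counting error only, there is no replicate check within a sex, and no test was run.

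The other genes of cholesterol metabolism were read from lists of 44 genes. None passed 1.5-fold. Among the 13 remaining synthesis enzymes, 8 were higher in the female and 5 in the male library, with a median log2 difference of 0.05. *Sc4mol* (the methyl sterol oxidase Msmo1), at 42.1 and 57.9 RPKM, differed most among the enzymes and was named after its values were seen. *Lbr*, a sterol reductase of the nuclear envelope, was the lowest, at 4.38 and 4.09 RPKM. Among the 7 SREBP regulators, 3 were higher in the female library. *Insig1*, which retains SREBP in the endoplasmic reticulum and is itself a target, had 50.7 and 72.9 RPKM, whereas *Srebf1* had 26.2 and 19.6 RPKM and *Srebf2* 50.4 and 46.5 RPKM. The 18 genes of uptake, transport and turnover leaned the other way, with 12 higher in the male library and a median of -0.13. *Apoe*, the main apolipoprotein of the central nervous system, had 942 and 816 RPKM. Of the 6 fatty acid genes, 5 were higher in the male library, with a median of -0.04.

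**Figure D2:**
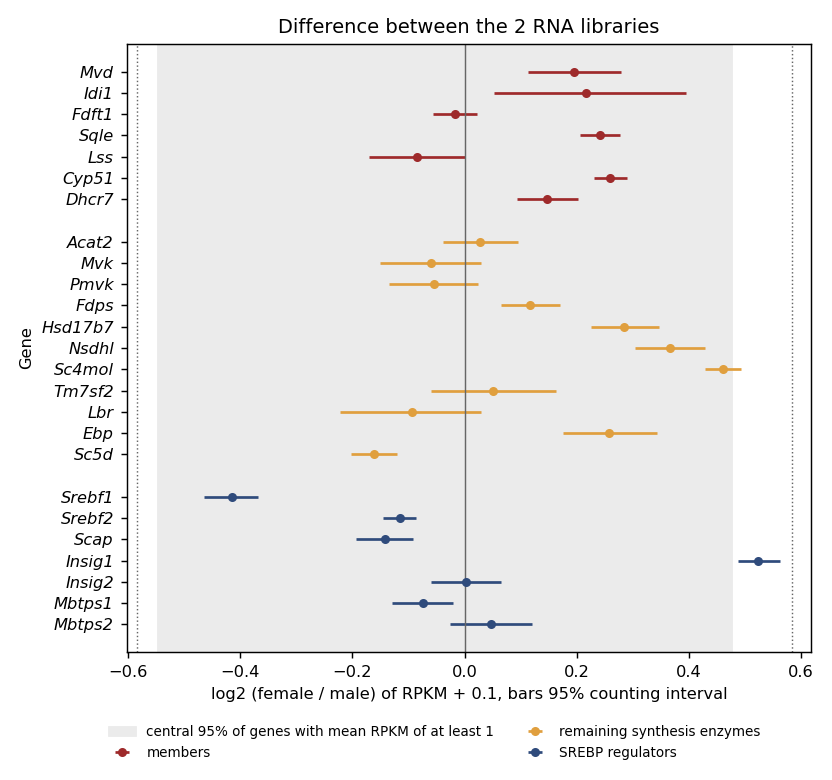
log2 ratio of the female over the male library for 7 genes of the group, 11 other synthesis enzymes and 7 SREBP regulators, with 95% counting intervals, grey for the central 95% of genes with a mean of at least 1 RPKM and dotted lines at 1.5-fold. *Cyp51* (0.26) and *Sqle* (0.24) lie right of 0, *Insig1* (0.52) and *Srebf1* (-0.42) farthest apart, and no point passes 1.5-fold.

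The 5 genes closest to the median of the group over the 2 libraries (22.1 RPKM male, 24.9 female), by Euclidean distance in log2(RPKM + 0.1), were *Luc7l2*, *Zmym2*, *AU014645*, *Gls2* and *Bag3*, at distances of 0.017 to 0.025. With 2 libraries, this likeness is one of level alone.

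Of the 11 cassette exons, 7 had at least 10 junction reads in each library, 4 belonged to *Hmgcs1* and had 0, and *Idi1* and *Cyp51* had no entry. Of the 7, 3 were included in over 90% and the other 4 in under 15% of transcripts, beside 54.2% and 20.3% of all 9396 exons tested. The coding 96-nt exon of *Sqle* (chr15:59156017-59156112) had 437 male and 514 female junction reads, none of them skipping, which allows a skipped share of up to 1.73% and 1.47% (Wilson intervals). The coding 116-nt exon of *Mvd* (chr8:124960374-124960489) had 158 and 130 junction reads, again none skipping. The opposite held for a 103-nt exon in an *Mvd* intron (chr8:124963856-124963958), with 1 and 0 inclusion junction reads against 24 and 28 skipping reads. A 122-nt exon in a *Fdft1* intron (chr14:63778075-63778196) had 0 and 3 inclusion junction reads against 332 and 264 skipping reads. Neither of these intronic exons has an edge in the mm9 annotation.

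Of the 4 rarely included exons, the 95-nt exon of *Lss* had the highest rate. It (chr10:76000314-76000408, plus strand, mm9) is annotated only in a transcript of the retained-intron class, and its sequence, with the single YCAY in capitals, was
Lss 95-nt exon: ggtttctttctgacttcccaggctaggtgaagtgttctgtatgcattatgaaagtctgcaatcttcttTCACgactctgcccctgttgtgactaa
In the male library, 6 and 2 reads joined it to its neighbours and 31 skipped it, so 11.4% included it (Wilson interval 4.54% to 26.0%). In the female library, 5 and 4 reads joined it and 28 skipped it, so 13.8% included it (5.81% to 29.5%). Over both libraries inclusion was 12.6% ± 1.71 (SD, n = 2). With both inclusion junctions summed in place of their mean, inclusion was 22.4%, and with exon body reads added to that sum it was 27.2%. Its length leaves a remainder of 2 on division by 3. NOVA CLIP placed 4 WSC reads and 1 MN read in the exon itself.

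In *Dhcr7*, 2 alternative exons lie in the 5′ UTR, and their rates share reads. The 127-nt exon (chr7:151016044-151016170) had 157 and 213 reads joining it to the downstream exon, and 4 and 0 reads skipping it, which gives rates of 95.2% and 100%. Only 2 and 0 reads joined it to the upstream exon of the event, so that the rate rests on 1 of its 2 junctions. The 169-nt exon (chr7:151019673-151019841) was skipped by 157 and 213 reads, the same counts that joined the 127-nt exon downstream, so that the rates are not independent. It was joined by 1 and 2, with a mean rate of 0.392% ± 0.106 (SD, n = 2). None of the 7 exons was called between the libraries by Fisher's exact test (FDR of at most 0.1), where 4.26% of 9396 exons were. The 127-nt exon of *Dhcr7* was the only exon at an unadjusted p under 0.05 (Fisher's exact test, p = 0.0348, adjusted 0.337). The test counts exon body reads as inclusion, unlike the rates above, and covers counting error between 2 libraries only.

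NOVA CLIP reads were counted on the 7 genes present in the annotation, by the midpoint of each unique read on the gene's strand. MN libraries held 49985 to 679899 reads on genes and WSC libraries 1785543 to 4970198, so that 3 reads correspond to 4.41 to 60.02 counts per 1000000 gene reads (CPM) in MN and to 0.604 to 1.68 CPM in WSC. As a check of the labels, *Chat*, the cholinergic marker, was 8.45-fold higher in MN than in WSC, and *Slc6a5*, the transporter of glycinergic interneurons, was lower in MN (log2 fold change -4.27).

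*Cyp51* was the only gene of the group called between MN and WSC, with more NOVA CLIP reads in MN. The WSC libraries had 30.1, 28.0, 25.9 and 33.0 CPM, and the 8 MN libraries ranged from 15.2 to 81.3 with a median of 52.7. In line 6 the values were 27.2, 44.1, 59.5 and 46.0, and in line 17 they were 60.02, 81.3, 15.2 and 70.6. Thus 6 of 8 MN libraries lay above every WSC library, and the other 2 held 2 reads and 1 read. Of those above, library 2 of line 6 (44.1 CPM) and library 1 of line 17 (60.02 CPM) held only 3 reads each. The MN mean was 50.5 ± 22.0 (SD, n = 8) and the WSC mean 29.3 ± 3.05 (SD, n = 4). With all 16430 genes that had a read kept in the model, *Cyp51* was 1.89-fold higher in MN (log2 0.92 ± 0.21 SE, edgeR quasi-likelihood test, adjusted p = 9.59e-05), where 7.16% of genes were called higher and 15.9% lower at an FDR of at most 0.01. With edgeR's filter on low counts, 4536 genes remained, of which 28.1% were called higher and 29.1% lower. *Cyp51* was the only gene of the 7 to remain, at 2.17-fold (log2 1.12 ± 0.20 SE, adjusted p = 2.72e-05). It passed the filter's minimum of 40.5 CPM in 6 MN and 0 WSC libraries, so that this second value is a description. Library 4 of line 17 held 48 of the 94 MN reads, and without it the unfiltered log2 fold change was 0.68 (adjusted p = 0.0474, edgeR), which missed the threshold of 0.01. It was called without each of the other 11 libraries in turn (log2 0.85 to 0.99). The lines did not differ detectably on *Cyp51* (log2 0.42 ± 0.42 SE for line 17 over line 6, adjusted p = 0.864, edgeR). With line 6 as the only MN line, the filtered log2 fold change of 0.89 missed the threshold (adjusted p = 0.0154, edgeR).

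Most NOVA reads on *Cyp51* were intronic, and its exonic reads alone showed no call. Of the *Cyp51* reads, 9.57% were exonic in MN (9 of 94, Wilson interval 5.12% to 17.2%) and 32.5% in WSC (130 of 400, 28.1% to 37.2%). In a model of exonic reads alone, the log2 fold change was -0.05 ± 0.50 SE (adjusted p = 0.972, edgeR, approximate 95% interval -1.03 to 0.92), where 3.83% of genes were called higher and 8.45% lower. In a model of intronic reads alone, it was 0.57 ± 0.22 SE (adjusted p = 0.0781, edgeR), where 2.04% of genes were called higher and 4.53% lower. The difference between the exonic and the intronic fold change was not tested. Over all genes, exons took 39.4% ± 3.81 (SD, n = 8) of gene reads in MN and 64.1% ± 2.17 (SD, n = 4) in WSC, a shift between the arms that moves with every whole-gene value here and whose part in them was not tested. The fullest *Cyp51* bin (chr5:4085201-4085300) held 16 MN and 64 WSC reads, or 17.0% and 16% of the reads of each arm. It had 6 YCAY, against a mean of 1.78 per 100 bases of the gene, and 2.13% of the gene's bins had as many. The stretch printed above for *Cyp51* lies in this bin.

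The other 6 genes were not called in either direction in the unfiltered model. *Sqle* had 34.1, 37.4, 47.5 and 36.4 CPM in WSC and 14.7 to 33.8 in MN, with a median of 27.7, and no MN library reached the lowest WSC library. However, libraries 1 and 2 of line 6 and libraries 1 and 3 of line 17 held only 1 or 2 *Sqle* reads each. The *Sqle* log2 fold change was -0.55 ± 0.25 SE (adjusted p = 0.0758, edgeR), beside a median of -0.31 over all genes in this model. With exonic reads alone it was 0.02 ± 0.28 SE (approximate 95% interval -0.52 to 0.57), and with intronic reads alone 2.51 ± 0.84 SE, from 6 MN and 4 WSC reads, which missed the threshold of 0.01 (adjusted p = 0.0324, edgeR). *Lss* had 32.7, 28.4, 29.2 and 15.1 CPM in WSC, and in MN from 0 in 3 libraries up to 40.7, with a median of 12.3. Its log2 fold change of -0.78 ± 0.30 SE (adjusted p = 0.0316, edgeR) missed the threshold of 0.01, and was -0.25 ± 0.34 SE with exonic reads alone. *Fdft1* had 26.5, 35.01, 22.0 and 27.4 CPM in WSC and 0 to 29.4 in MN, with a median of 21.0, and the groups overlapped (log2 -0.49 ± 0.28 SE, adjusted p = 0.183, edgeR). *Dhcr7* had 36.6, 30.4, 27.4 and 23.0 in WSC and 14.7 to 100.03 in MN, with a median of 27.4, and its log2 fold change of -0.25 ± 0.26 SE had an approximate 95% interval of -0.76 to 0.27. *Idi1* and *Mvd* had 30 and 28 reads in WSC and 4 and 1 in MN, so that a difference was not detectable at this depth.

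**Figure D3:**
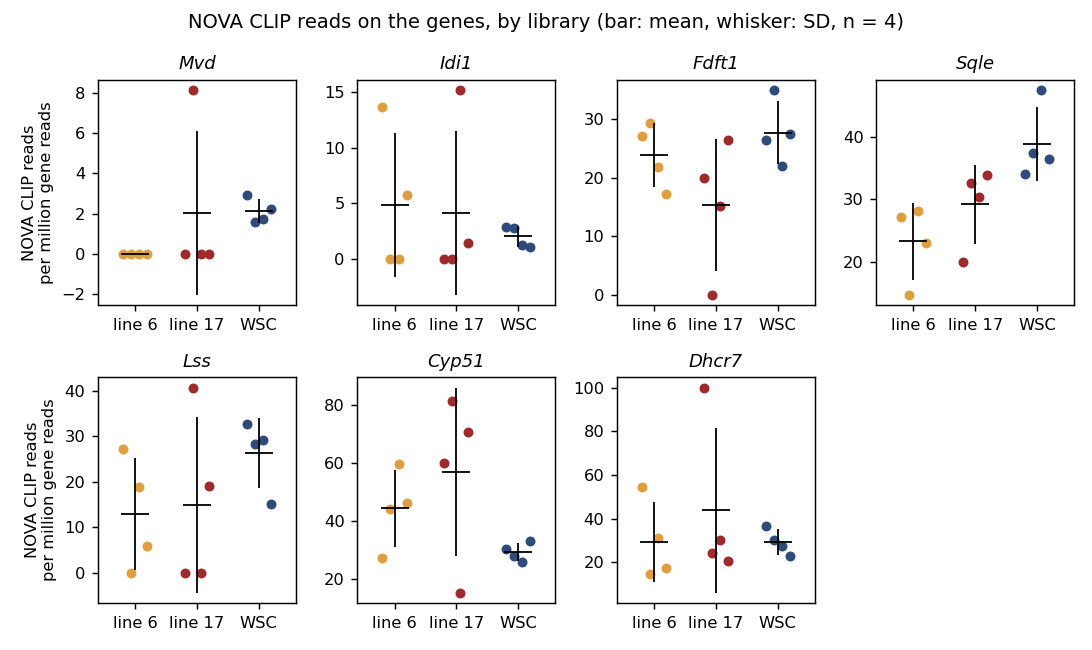
NOVA CLIP reads in CPM in each library for 7 genes, 4 libraries each of MN line 6, MN line 17 and WSC, with the mean (bar) and SD (whisker). On *Cyp51*, 6 of 8 MN libraries lie above the WSC libraries, and on *Sqle* every MN library lies below them. Some of these MN values rest on 3 reads or fewer.

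**Figure D4:**
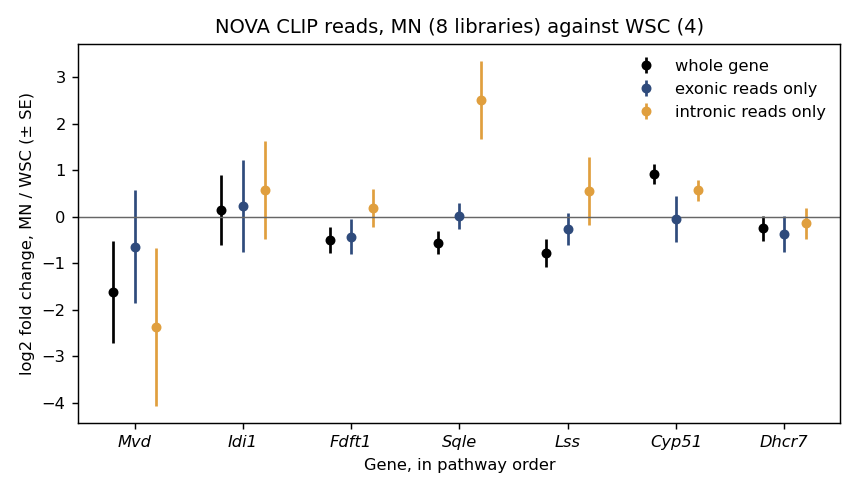
log2 fold change of NOVA CLIP reads, MN over WSC, with SE, for whole genes, exonic reads and intronic reads in models without a filter on low counts. *Cyp51* is at 0.92 for the whole gene, -0.05 for exons and 0.57 for introns, and the widest bars belong to *Mvd* and *Idi1*, which have few reads.

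On *Sqle*, NOVA reads lay toward the 3′ end of the gene in both arms. For *Fdft1* and *Lss* this was clear in WSC and less so in the 34 and 27 MN reads. A single 500-nt bin at the 3′ end of *Sqle*, 15500 nt from its start, took 67.4% of MN reads (31 of 46, Wilson interval 53.0% to 79.1%) and 79.0% of WSC reads (445 of 563, 75.5% to 82.2%). The 100-base bin that holds the *Sqle* stretch printed above had 27 MN and 378 WSC reads and 4 YCAY, beside a gene mean of 1.58. On *Fdft1*, a coding bin 30500 nt from the start took 10 of 34 MN reads (29.4%) and 208 of 397 WSC reads (52.4%). Its fullest 100 bases held 5 YCAY, beside a gene mean of 1.55, although none fell in the 30 bases of highest coverage. On *Lss*, WSC reads were spread mostly over the 3′ part, and MN reads over bins from 5000 to 25500 nt from the start. The fullest 500 nt took 14.8% of MN and 29.6% of WSC reads. The fullest 100 bases held 2 YCAY on *Lss* (gene mean 1.74), 1 on *Idi1* (1.33) and 4 on *Dhcr7* (2.05). On *Lss*, 54.1% of the gene's bins had as many, and on *Idi1* 73.1%.

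On *Dhcr7*, an intronic stretch of 500 nt (chr7:151027550-151028049) was the fullest in MN and took 17 of 42 reads (40.5%, Wilson interval 27.0% to 55.5%) from 7 of the 8 libraries, with at most 5 reads in 1 library. In WSC, the same stretch took 79 of 419 reads (18.9%, 15.4% to 22.9%), as many as a bin over a coding exon 14500 nt from the start, where MN had 3 of 42 reads (7.14%). This bin was noticed in the data and its difference was not tested.

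**Figure D5:**
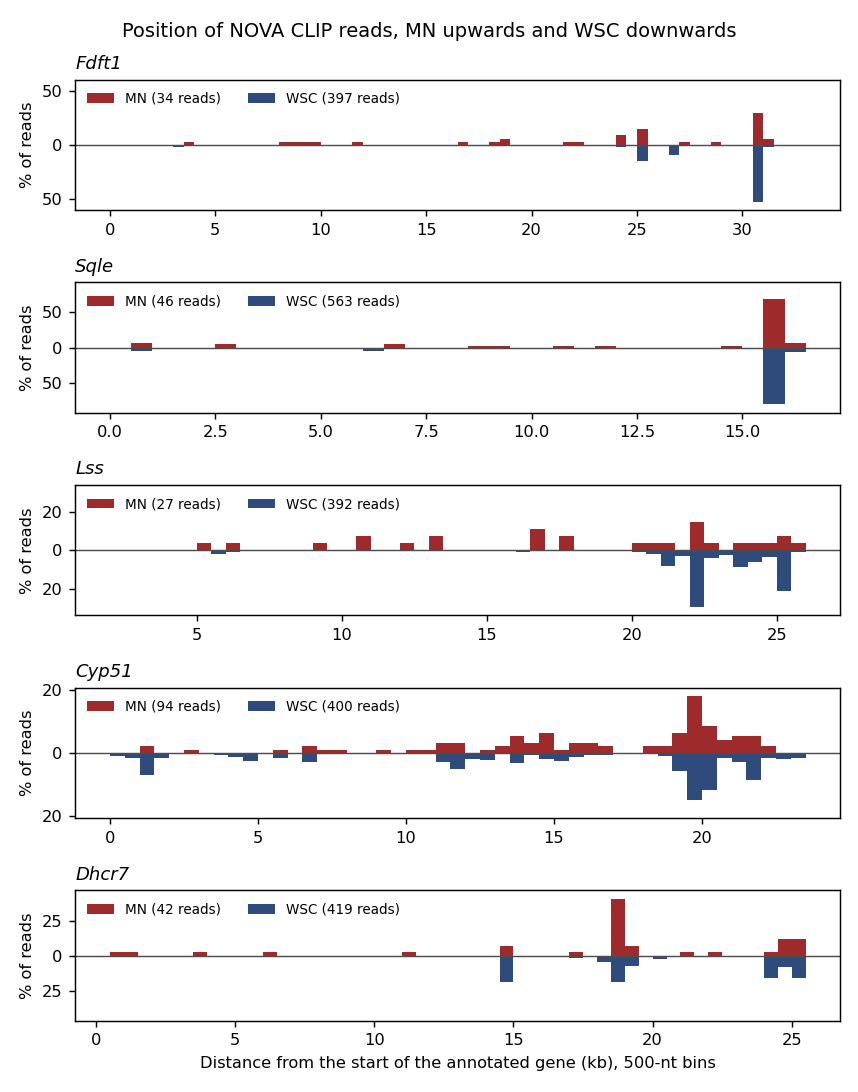
Share of NOVA CLIP reads in 500-nt bins along 5 genes, by distance from the start of the annotated gene, MN upwards and WSC downwards, with reads pooled within each arm. *Sqle* reads gather in the bin at 15500 nt in both arms, *Cyp51* reads spread over introns, and *Dhcr7* has its fullest MN bin at 18500 nt.

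Over the 7 genes together, 42.7% of MN reads (106 of 248) and 76.9% of WSC reads (1714 of 2229) were exonic, beside the 39.4% and 64.1% of all genes given above. Exonic CLIP reads in WSC were set against the RNA of the spinal cord. The log2 ratio of the 2, both in CPM, had a median of -1.29 over 10886 genes, and was -4.18 for *Cyp51*, at the 12.0 percentile, -3.73 for *Mvd* and -2.09 for *Fdft1*. *Sqle* (-1.60), *Dhcr7* (-1.40) and *Idi1* (-1.67) lay near the median. *Lss*, at 0.27, was the one gene above it, at the 77.6 percentile. The 2 assays came from different mice and strains, and NOVA is neuronal whereas the RNA is from all cells, so these ratios are descriptive. The exons counted also differed between the assays. *Lss* had 2748 nt of exon for RNA, but its longest transcript in the CLIP annotation has 4667 nt. For *Fdft1*, the lengths were 3697 and 2860 nt. The part of these lengths in the ratios was not tested.

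Of the 44 other genes of cholesterol metabolism, 43 were tested without a filter on low counts, and 2 were called higher in MN (7.16% of all genes) and 17 lower (15.9% of all genes). The 13 remaining synthesis enzymes had a median log2 fold change of 0.04 in this model, with 0 called higher and 2 lower. The 25 genes described next were tested with the filter on low counts, of which 3 were called higher (28.1% of all genes) and 15 lower (29.1% of all genes). The filter can keep a gene through 1 arm alone, as for *Cyp51*. The arm is not given here for these genes, so their filtered values are a description. The 3 higher were *Hsd17b7*, a sterol ketoreductase (1.31-fold, log2 0.39 ± 0.13 SE), *Abca1*, which exports cholesterol (2.46-fold), and *Acaca*, which makes malonyl-CoA (1.83-fold). Of the SREBP regulators, 4 of 5 tested were lower, namely *Insig1* (log2 -1.95 ± 0.26 SE), *Insig2*, *Scap* and *Srebf2* (-0.77 ± 0.21 SE). In the unfiltered model of exonic reads, only *Insig1* was called lower among the regulators (log2 -1.59, adjusted p = 2.64e-06, edgeR), and *Srebf1* was called higher (log2 1.95 ± 0.56 SE, adjusted p = 0.00742, edgeR). Of the synthesis enzymes, *Sc5d* (log2 -1.18) was lower, as were *Apoe* (-1.67), *Cyp46a1*, *Lrp1*, *Npc1*, *Nr1h2* and *Stard4* among the transport genes and *Fasn* (-1.92), *Scd2* and *Elovl6* among the fatty acid genes. With the filter, a model of exonic reads alone kept 2265 genes and called 5 of the other cholesterol genes lower. Without library 4 of line 17, the filtered whole-gene model kept 3649 genes and called 8 lower. Both sets are smaller than the 4536 genes of the filtered whole-gene model, so the counts do not cover the same genes. In the unfiltered whole-gene model, *Abca1* (log2 1.08) and *Acaca* (log2 0.66) were called higher, and the genes named here as lower were called lower. *Hsd17b7* was not called in that model (adjusted p = 0.339, edgeR).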

How the data were processed

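The genes, lists and tests were chosen with earlier results of these data known. RNA-seq: per the study's methods, 100-nt paired reads were trimmed to 74 nt and aligned to mm9 with OLego, and Quantas counted unambiguous reads. The deposited tables give counts and RPKM per gene and counts of junction reads per cassette exon. Inclusion was the mean of the upstream and downstream inclusion junctions over that mean plus skipping reads. CLIP: per the labels and methods, the authors aligned reads to mm9 with Novoalign, removed duplicates and deposited 1 line per unique read with a score, which was not used. For library 2 of line 6 the notes also name mm10, but 72.5% of its reads fell on 1 mm9 gene (72.4% to 78.0% in MN libraries). Reads were assigned by midpoint to GENCODE vM1 genes and tested with edgeR 4.0.16 (quasi-likelihood, TMM, filterByExpr, Benjamini-Hochberg, FDR of at most 0.01). DESeq2 1.42.0 was an alternative. RNA libraries were compared as log2 of RPKM + 0.1, with exact binomial counting intervals. Intervals and floors (3 reads) cover counting error only. CLIP fits were tested on simulated data. Nothing says that same-numbered libraries share animals. The CLIP p-values measure the spread between libraries. Fisher p-values of exons compare read counts of 1 male and 1 female library, so they cover counting error only. Exon body reads enter the inclusion counts of that test. The named genes are the 8 genes, list genes with extreme levels and list genes called in CLIP; some list genes are counted but not reported here by name.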

Additional observations from a re-analysis of the deposited data

Results flagged for a closer look

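In groups of 4 libraries, 3 of 20 gene and group combinations had 1 library apart from the others by more than Dixon's critical value, where chance flags about 1 in 20. That rate is for continuous values and need not hold for read counts as low as those below. All 3 were in line 17, in different libraries. *Dhcr7* reached 100.03 CPM in library 1 of line 17, from 5 reads. *Idi1* reached 15.2 in library 3 of line 17, from 1 read. *Mvd* reached 8.13 in library 2 of line 17, from 1 read.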

How the results depend on the processing

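CLIP libraries of equal number share only that number. Their deviations correlated by 0.055 to 0.20 between the 2 MN lines (3 of 4 pairs over 0.1) and by -0.07 to 0.033 between MN and WSC (0 of 8), and in 6 of 12 comparisons a library matched its own number best. With the number as a replicate block, the filtered log2 fold change of *Cyp51* was 1.01 (adjusted p = 0.00136, edgeR) and the filter, which *Cyp51* alone passed through MN, left 1 gene called higher and 0 lower. Without the filter, the block gave 0.79 (adjusted p = 0.0142, edgeR), so that 0 genes were called, and among the other genes the filtered block moved the number called lower from 15 to 11. The MN call on *Cyp51* was lost with line 6 only (0 genes called, log2 0.89, adjusted p = 0.0154, edgeR). With exonic reads only, 0 genes were called, since none of the 7 passed the filter, and in the unfiltered exonic model the value of *Cyp51* turned to -0.054. In the unfiltered intronic model 0 genes were called (*Cyp51* 0.57), and without library 4 of line 17 in the unfiltered whole-gene model 0 as well (0.68). These unfiltered (blocked too), intronic, summed-junction and unfiltered leave-one-out fits were added after seeing the data. Leaving out 1 library each, 0 to 1 genes were called higher and 0 lower. The filtered count was 0 without library 3 of line 6 or library 4 of line 17, where *Cyp51* fell below the filter. Among the other genes, 15 were called lower in the filtered fit (8 to 15 leaving out 1 library each). The filtered fit of exonic reads only called 5 lower, but it kept fewer genes (2265 in place of 4536). No gene passed 1.5-fold between the RNA libraries under the pseudocount, TMM or DESeq2 alternatives. No other alternative ended the call on *Cyp51* or added a call among the 7 genes. The looser FDR, library size only and DESeq2 were applied to the filtered fit, which tested only *Cyp51* of the 7. They therefore could not add a gene. At an FDR of at most 0.05 in the unfiltered whole-gene model, *Lss* would be called lower (adjusted p = 0.0316, edgeR). The uncalled values ranged over all fits from -0.77 to 2.51 (log2) for *Sqle*, -0.96 to 0.56 for *Lss*, -0.80 to 0.19 for *Fdft1*, -0.39 to 0.05 for *Dhcr7*, -0.18 to 0.58 for *Idi1* and -4.99 to -0.64 for *Mvd*. With both junctions summed and exon body reads added, mean inclusion was 27.2% for the *Lss* exon, 3.05% for the 169-nt *Dhcr7* exon and 6.96% for the *Fdft1* exon, beside 22.4%, 0.782% and 0.562% with the junctions summed alone. The median RPKM of the 8 genes, 23.8, was 25.2 without the male and 22.4 without the female library. MN depth limits *Idi1* and *Mvd* (4 and 1 MN reads).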
